A study of Mus musculus with 6 samples.

Results

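Src, Lyn, Fgr, Fyn, Yes1, Csk, Ptk2, Ptk2b and Syk encode cytoplasmic tyrosine kinases that carry signals from immune receptors and integrins. These 9 genes were picked by symbol out of 16138 genes measured in mouse bone marrow-derived macrophages, and all 9 were found under their own symbol. They were proposed with results of this same comparison known, so their ratios, p-values and q-values are a description and not a test of the family.

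Knockout macrophages, called cKO here, came from mice of genotype Morrbid fl/fl with Lyz2-Cre (3 samples), and control macrophages from Morrbid fl/fl mice without Cre, labelled WT (3 samples). Both genotypes carry loxP-flanked Morrbid, a long non-coding RNA gene of myeloid cells. Cre expressed from the lysozyme locus Lyz2 removes the flanked sequence in myeloid cells, and what Cre or its insertion does cannot be told apart from what losing Morrbid does. Marrow cells of both groups were grown for 7 days in 50 ng/ml macrophage colony-stimulating factor (M-CSF), and the sources used here do not give the ages of the mice. In a series on aneurysm and macrophage inflammation of vessels, the RNA sequencing asks which macrophage transcripts differ with genotype.

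Src-family kinases sit at the inner face of the plasma membrane, where they phosphorylate the tyrosine motifs of Fc receptors and lectins called ITAMs. SYK then docks on those motifs and passes the signal on. CSK restrains the family by phosphorylating a tyrosine in the tail of each kinase. Focal adhesion kinase (FAK, from Ptk2) and its relative PYK2 (from Ptk2b) are activated below integrins, bind SRC, and act with it on adhesion and podosome proteins. In macrophages this machinery serves phagocytosis, spreading and migration.

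The transcripts of Src and Ptk2, the gene pair whose proteins act together at adhesions, were about doubled in cKO, and those of the other kinases gave smaller or imprecise ratios. In the authors' deposited table, Src and Ptk2 rose at a q under 0.05, none of the 9 fell, and 7 did not pass, beside a background of 0.849% of all genes called higher, 0.874% called lower and 1.72% called in either direction. Nothing is read from the members' count, since they were proposed with this contrast known. Ratios were above 0 for 8 of the 9 kinases in the authors' deposited table, where 47.7% of all genes lay above 0. Of the 9, only 3 had a 95% interval wholly above 0, by the standard errors explained below. The median log2 fold change was 0.22 over the 9 kinases and -0.01 over all genes in the authors' deposited table.

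Each ratio is 1 value over 6 libraries, and values per library were not analysed here, so no spread between samples can be shown. The errors printed for single genes are standard errors worked back from the ratio and the two-sided p-value of each gene, on the assumption of a Wald-type test. The median of these standard errors over all genes was 0.185 log2 units. Since the labels do not tie the samples to separate animals, these errors cover the spread between samples alone, which may be technical. In bulk RNA, fewer cells of a type and less RNA per cell cannot be told apart. The depth of each library is unknown.

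Src (Gene ID 20779) encodes the founding member of its family, a kinase needed for bone resorption by osteoclasts. Its log2 fold change in the authors' deposited table was 1.01 (implied standard error 0.229, q = 0.00171). The cKO level was thus 2.01 times the control level, with a 95% interval of 1.47 to 2.74 by that standard error. A log2 fold change of 0.763 would have been needed to pass at that precision, which 55.5% of all genes bettered. The call of Src was lost under a Holm adjustment. Among the 137 genes called higher in the authors' deposited table, Src ranked 36 by log2 fold change, and the median of those genes was 0.59.

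Lyn (Gene ID 17096), which acts both for and against activation in myeloid cells because it also phosphorylates inhibitory receptors, stood in the authors' deposited table at a log2 fold change of 0.22 (implied standard error 0.115, q = 0.579). Its 95% interval by that standard error, -0.003 to 0.449, contained 0 and left out the ratio of Src. Fgr (Gene ID 14191), a Src-family kinase largely limited to myeloid cells, stood at 0.32 in the authors' deposited table with a wider implied standard error of 0.247 (q = 0.924). A change of 0.824 log2 units would have been needed for Fgr to pass, so a change the size of its ratio was not detectable at this precision. Fyn (Gene ID 14360), a widely expressed member of the family, stood at 0.09 in the authors' deposited table (implied standard error 0.11, q = 0.993). The interval of Fyn, -0.122 to 0.308, lay wholly below the lower bound of 0.557 for Src. That of Fgr, -0.169 to 0.800, overlapped the interval of Src. The differences between members of the family were not tested.

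Yes1 (Gene ID 22612), a ubiquitous relative of Src, had the only ratio below 0 among the 9, a log2 fold change of -2.83 in the authors' deposited table (p = 0.0631, q = 0.620). This was also the largest ratio of the 9 in absolute size and the least precise, with an implied standard error of 1.53 that 82% of all genes bettered. Its 95% interval in linear terms ran from 0.0176 to 1.11 times the control level, and 5.08 log2 units would have been needed to pass. No direction is read from this value. Of the other 8 kinases, each had an implied standard error between 0.0923 and 0.247.

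**Figure D1:**
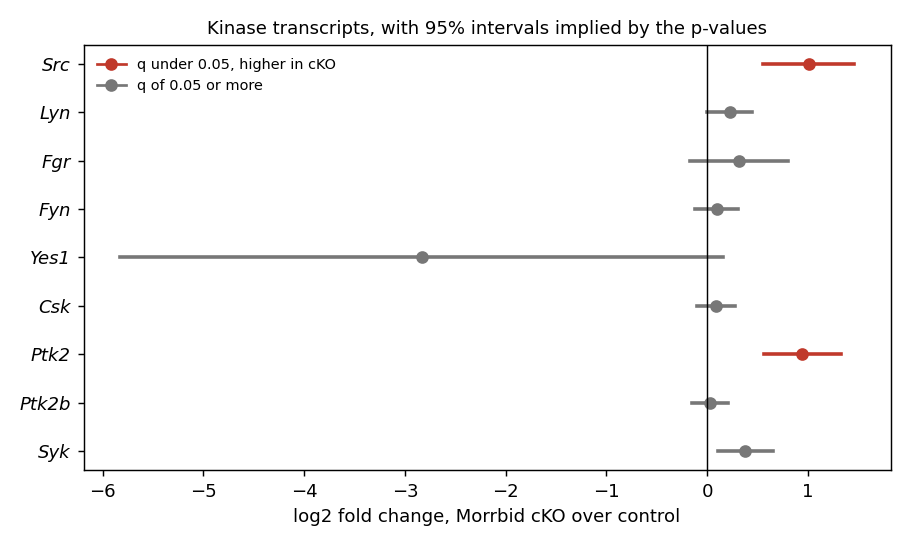
Log2 fold change of each kinase, Morrbid cKO over control (horizontal axis, log2 units), as points with 95% intervals from the implied standard errors as bars. Red marks a q under 0.05: Src at 1.01 and Ptk2 at 0.95 lie to the right of 0, and the interval of Yes1 is far wider than the rest.

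Csk (Gene ID 12988), the brake on the family, stood at a log2 fold change of 0.09 in the authors' deposited table (implied standard error 0.096, q = 0.993). Its 95% interval by that standard error ran from 0.935 to 1.21 times the control level. A change of 0.32 log2 units would have been enough for Csk to pass.

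Ptk2 (Gene ID 14083) rose, with a log2 fold change of 0.95 in the authors' deposited table (implied standard error 0.195, q = 0.000369). The cKO level was 1.93 times the control level, with a 95% interval of 1.48 to 2.51 by that standard error. Ptk2 ranked 38 by log2 fold change and 32 by p-value among the 137 genes called higher in the authors' deposited table. Its call was lost when a ratio of 1 log2 unit or more was also required. The table lists 47 transcripts for Ptk2 and counts FRNK, the product of the same gene that lacks the kinase domain, among its other names. One ratio per gene does not separate such products from full-length FAK.

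Ptk2b (Gene ID 19229) is the paralog more typical of blood cells. It stood in the authors' deposited table at a log2 fold change of 0.03 (implied standard error 0.0923, q = 0.993). Its 95% interval by that standard error, -0.156 to 0.206, did not overlap that of Ptk2, 0.562 to 1.328. The difference between the paralogs was not itself tested.

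Syk (Gene ID 20963) stood in the authors' deposited table at a log2 fold change of 0.38 (implied standard error 0.138, p = 0.00594, q = 0.181) and did not pass. It was the only one of the 7 kinases that did not pass whose unadjusted p was under 0.05, a level that 8.84% of all genes reached in the authors' deposited table. Its ratio fell short of the 0.459 log2 units needed to pass at its precision. The 95% interval of Syk, 0.109 to 0.648, overlapped those of Src, 0.557 to 1.455, and Ptk2, 0.562 to 1.328.

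**Figure D2:**
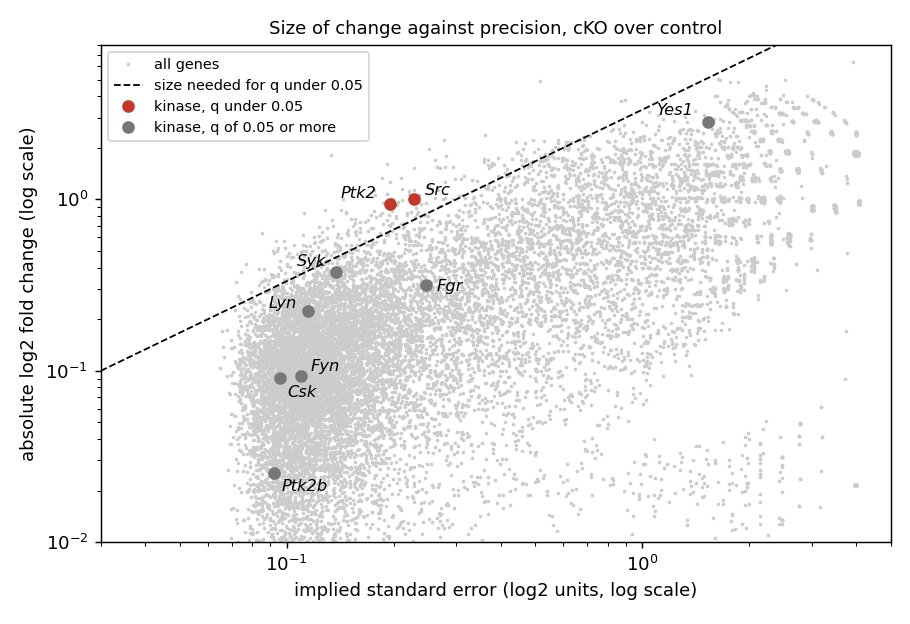
Absolute log2 fold change against implied standard error (both in log2 units, log scales) for all genes in grey, without those under 0.01, and for the 9 kinases as large points. The dashed line is the size needed for a q under 0.05: Src and Ptk2 lie above it, Syk at 0.38 lies just under it, and Yes1 lies at the imprecise end with an implied standard error of 1.53.

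In the RefSeq annotation of GRCm38, a later build than the mm9 named in the submitters' processing notes, no gene whose span overlaps 1 of the 9 kinases was itself among the genes measured. Src, Csk and Syk overlapped no other annotated gene there.

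Genes around the kinases were gathered in 8 lists of receptors, regulators, substrates and further kinases, without the 9 kinases themselves. Of 137 such genes in the authors' deposited table, 5 rose, 1 fell and the rest did not pass, which is 4.38% called against 1.72% of all genes. The lists were chosen with earlier results of these data known, so these shares are a description and not a test. They were not matched for precision. The changes were in inhibitory receptors (3 rose), integrins (1 rose and 1 fell) and adaptors below Src-family kinases and SYK (1 rose). The list counts at an unadjusted p under 0.05 given below stand beside 8.84% of all genes at that level.

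The other tyrosine kinases gave no call. None of 6 further Src-family and related kinases passed or reached an unadjusted p under 0.05 in the authors' deposited table. Ptk6 (0.98) and Frk (-0.61) in the authors' deposited table had implied standard errors of 1.16 and 1.02, and the list median of 0.53 rests on such values. Among 16 other cytoplasmic tyrosine kinases, 0 passed and 2 had an unadjusted p under 0.05, with a median of -0.01 in the authors' deposited table. Those nearest to a call in the authors' deposited table were Tec (-0.24, q = 0.300), Fer (0.22, q = 0.488) and Abl2 (0.19, q = 0.743). Tec founded the family that also holds BTK, Fer is a kinase of cell contacts, and Abl2 is a relative of ABL1 that acts on actin.

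Receptors fell into those that signal through ITAMs and those that carry the inhibitory counterpart of the motif, the ITIM. None of 16 ITAM-coupled receptors and adaptors passed in the authors' deposited table, although 5 had an unadjusted p under 0.05, 4 of them with ratios below 0, and the median was -0.09. Those with the smallest p in the authors' deposited table were Trem1, an amplifier of inflammatory signals (-1.35, q = 0.146), Trem2, a receptor for lipids (-0.21, q = 0.202), and Cd300lb, an activating receptor (-0.17, q = 0.249). Of 16 receptors with inhibitory motifs, 3 rose and 13 did not pass (median 0.09) in the authors' deposited table. That is 18.8% called, against 1.72% of all genes. An unadjusted p under 0.05 was reached there by 5 of the 16, all with ratios above 0, and by 8.84% of all genes. The difference between these lists was not tested.

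Src-family kinases phosphorylate these motifs so that the phosphatases SHP-1 and SHP-2 can dock. Pecam1, an adhesion molecule of leukocytes, platelets and endothelium, rose in the authors' deposited table by 0.81 on the log2 scale (q = 0.00156). Pirb, which binds class I molecules, rose by 0.62 (q = 0.0078) and Clec4a2, an inhibitory lectin, by 0.57 (q = 0.000879) on the log2 scale in the authors' deposited table. Siglece, a receptor for sialic acid singled out after its value was seen, had in the authors' deposited table the largest ratio of the list, 1.38, with q = 0.0514.

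Enzymes and adaptors that set kinase activity gave no call and had ratios of small size. Of 22 phosphatases, E3 ligases and restraining adaptors, 0 passed, and the median was 0.03 in the authors' deposited table. An unadjusted p under 0.05 was reached there by 5 of the 22, each with a ratio above 0, and by 8.84% of all genes. Ratios of the 22 ran from -0.26 to 0.30 in the authors' deposited table, a narrower range than in the other 7 lists around the kinases. Ptprc, the phosphatase CD45 that removes the inhibitory tail phosphate, stood in the authors' deposited table at 0.28 (q = 0.161), Dok2, an adaptor that dampens receptor signals, at 0.25 (q = 0.320) and Ptprj, the phosphatase CD148, at 0.23 (q = 0.368).

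Below Src-family kinases and SYK, 1 of 23 substrates and adaptors rose and 22 did not pass (median 0.09) in the authors' deposited table. That is 4.35% called, against 1.72% of all genes. The gene that rose was Fyb, the adaptor ADAP that links receptor signals to integrins. It stood in the authors' deposited table at a log2 fold change of 0.42 (implied standard error 0.0771, q = 2.07e-05). Pik3ap1, an adaptor for PI3 kinase, stood in the authors' deposited table at 0.25 (q = 0.228) and Blnk, a SYK substrate, at 0.26 (q = 0.243). Of the 23 genes, 6 had an unadjusted p under 0.05, all with ratios above 0, in the authors' deposited table. Of all genes, 8.84% reached that level.

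**Figure D3:**
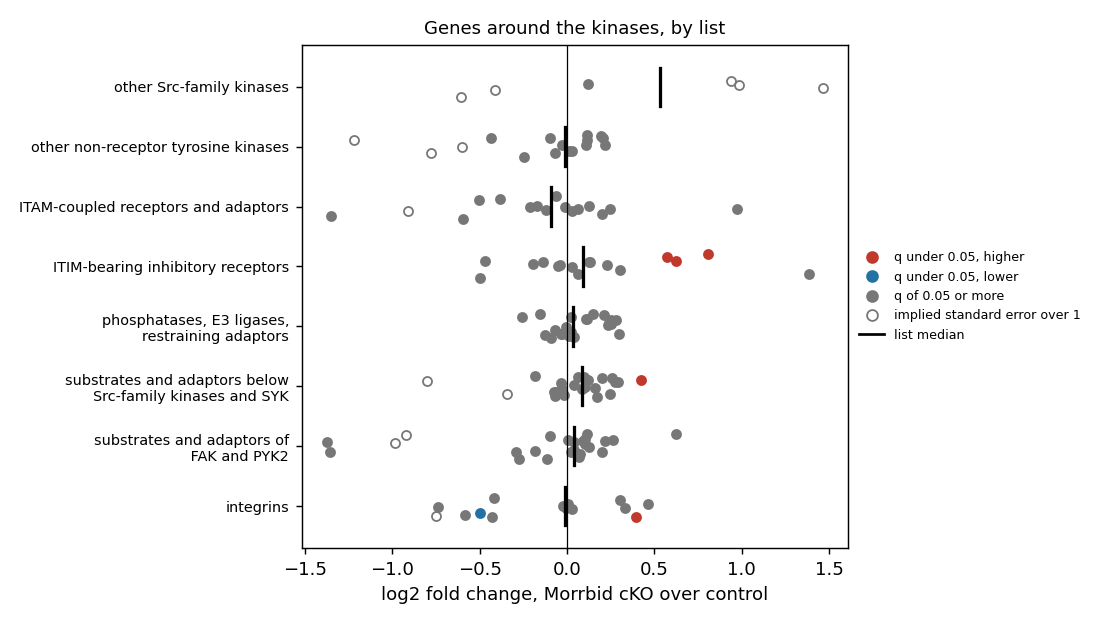
Log2 fold change, Morrbid cKO over control (horizontal axis, log2 units), of each measured gene in the 8 lists around the kinases, with black bars at list medians and open points for implied standard errors over 1. Calls are in colour: 3 inhibitory receptors, 1 integrin and 1 adaptor were higher and 1 integrin was lower.

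None of 24 substrates and adaptors of FAK and PYK2 passed (median 0.04) in the authors' deposited table. An unadjusted p under 0.05 was reached there by 5 of the 24, 3 with ratios above 0 and 2 below, and by 8.84% of all genes. Tln1, talin that couples integrins to actin, stood in the authors' deposited table at 0.26 (q = 0.203) and Tns1, the adhesion protein tensin, at 0.62 (q = 0.218). Per the authors' deposited table, Tgfb1i1, the paxillin relative HIC-5, stood at -1.36 (q = 0.264). Bcar1, the SRC and FAK substrate p130CAS, named after its value was seen, stood in the authors' deposited table at -1.37 (q = 0.298).

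Of 14 integrin chains, 1 rose, 1 fell and 12 did not pass (median -0.01) in the authors' deposited table. That is 14.3% called, against 1.72% of all genes. An unadjusted p under 0.05 was reached there by 7 of the 14, 3 with ratios above 0 and 4 below, and by 8.84% of all genes. In the authors' deposited table, Itga5, the alpha chain of the main fibronectin receptor, rose by 0.39 on the log2 scale (q = 0.00105). Per the authors' deposited table, Itgb5, the beta chain of a vitronectin receptor, was lower at -0.50 (q = 0.0235), and Itga6, a chain of laminin receptors, stood at -0.42 (q = 0.0511).

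Markers of stromal cells had ratios below 0 in the same comparison, and a few of them fell. All 16 fibroblast and stromal markers lay below 0, from -2.48 to -1.25 with a median of -1.74, in the authors' deposited table. An unadjusted p under 0.05 was reached there by 15 of the 16, and by 8.84% of all genes. Of the 16, 3 passed (18.8% called, against 1.72% of all genes). These were Col5a1 (-1.70, q = 0.000815), a fibrillar collagen, Loxl1 (-1.88, q = 0.00342), a collagen and elastin cross-linking enzyme, and Acta2 (-2.06, q = 0.0458), smooth muscle actin, in the authors' deposited table. Of the 9 kinases, 8 had ratios above 0, Src and Ptk2 among them, and 1, Yes1, had a ratio below 0. Only 3 of the 9 had a 95% interval wholly above 0. Itgb5 was the 1 gene of the 8 lists around the kinases that fell, and 5 genes of those lists rose. Of the 24 substrates and adaptors of FAK and PYK2, 15 lay above 0 and 9 below in the authors' deposited table. Bcar1 (-1.37) and Tgfb1i1 (-1.36), which did not pass, were among those 9. Tns1 (0.62), which did not pass either, was among the 15 above 0. The part of stromal cells in these values was not tested.

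The remaining marker lists stood nearer to 0 or were imprecise. The 12 macrophage markers had a median of 0.00 in the authors' deposited table, with 1 that rose, the adhesion receptor gene Adgre1 (0.44, q = 0.0104), and 1 that fell, Lyz2, the locus that carries Cre (-0.85, q = 4.6e-06). Neither levels per library nor Morrbid itself were analysed here, so the cell type and the deletion could not be checked by level. Of 7 osteoclast markers, a cell type in which Src and Ptk2b are prominent, none passed (median -0.03) in the authors' deposited table. An unadjusted p under 0.05 was reached there by 1 of the 7, with a ratio above 0, and by 8.84% of all genes. The implied standard error was at most 1 for 6 of the 7. The 10 neutrophil lineage markers all had ratios below 0, none passed and none had an unadjusted p under 0.05 (median -0.28), in the authors' deposited table. Of 5 endothelial markers, Pecam1 alone passed (median 0.60) in the authors' deposited table. Of 7 lymphocyte and 6 megakaryocyte and platelet markers none passed (medians -0.66 and -0.71) there. In the lymphocyte and the platelet list alike, 1 marker had an unadjusted p under 0.05, with a ratio below 0. The implied standard error exceeded 1 for all but 3 of the endothelial, 1 of the lymphocyte and 2 of the platelet markers. The part of these cell types in the ratios of the kinases was not tested.

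**Figure D4:**
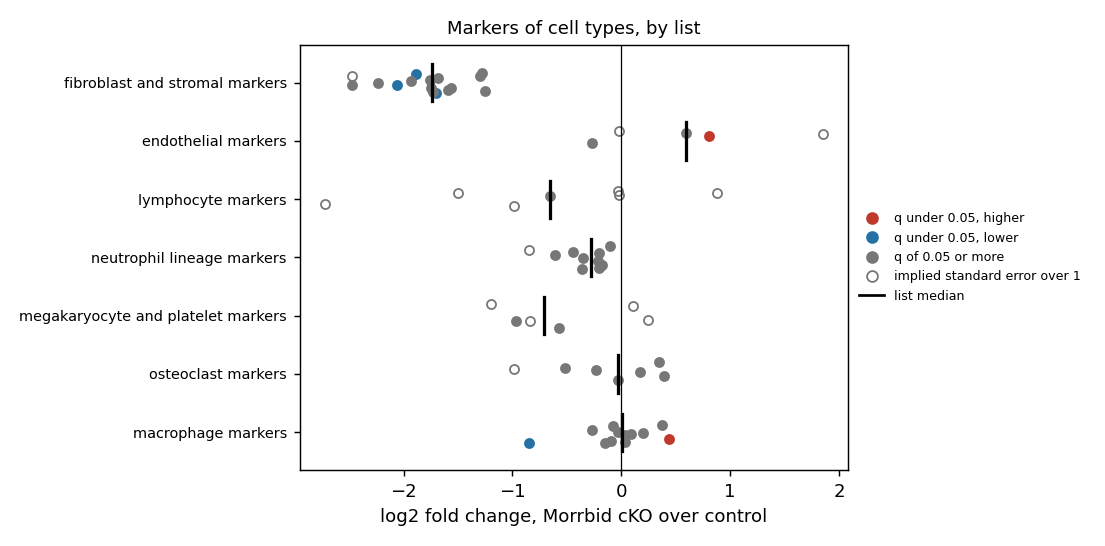
Log2 fold change, Morrbid cKO over control (horizontal axis, log2 units), of each measured marker in 7 lists of cell types, with black bars at list medians and open points for implied standard errors over 1. The fibroblast and stromal markers all lie left of 0 around a median of -1.74, and the macrophage markers centre on 0.00.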

How the data were processed

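TRIzol-extracted RNA of 6 samples, 3 cKO and 3 control, was sequenced by probe-anchor synthesis, per the labels' protocols; groups were taken from the genotype labels. The authors deposited 1 log2 fold change per gene (Morrbid_cko over WT), with its p-value and q-value, per the file headers; WT was taken as the Morrbid fl/fl controls. Bowtie2, RSEM 1.3.1, DESeq2 1.4.5 and build mm9 are listed without roles in the submitters' processing notes, and the sources used here do not give filters or scaling. Recomputing the q-values from the p-values the authors deposited, by Benjamini-Hochberg, gave the same values within a relative difference of 0.00587.

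Genes with q under 0.05 were called. Standard errors and 95% normal intervals were computed from each ratio and p-value, and the code for these steps was run on simulated data. The simulation drew its errors from the same normal model, so it cannot check the assumption of a Wald-type test. SciPy 1.17.1, NumPy 2.4.6 and pandas 2.3.3 were run in Python 3.11.15, with figures by matplotlib 3.10.9. The members and lists were chosen with earlier results of these data known, so list counts are descriptions beside those of all genes. Named were all 9 kinases, listed genes with q under 0.05, and the smallest p-values up to 3 in each pathway list; a gene that this rule also picked is named nowhere in the text. Planned model fits needed values per library, and protein identities needed protein sequences; both were not analysed here. The number of annotated transcripts per gene is as deposited.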

Additional observations from a re-analysis of the deposited data

How the results depend on the processing

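All alternatives were planned. With a minimum absolute log2 fold change of 1, of the kinases 1 was called higher, Src, and Ptk2 at 0.95 dropped out; over all genes 94 were called (36 higher, 58 lower). With a Holm adjustment of the deposited p-values 1 kinase was called higher, Ptk2, and Src dropped out; over all genes 67 were called (36 higher, 31 lower). At a q under 0.01 both kinases kept their call, and 165 of all genes were called (84 higher, 81 lower). These 3 settings are stricter by construction. Src and Ptk2 also kept their call among mRNA genes only and when only genes whose implied standard error was at most 1 were kept, settings that called 273 and 321 genes. No kinase was called lower under these 5 settings. Subtracting the median of all genes, -0.01, moved every ratio up alike and could not turn any kinase's direction, so it is no check of them. No paired analysis was possible because no values per library were used, and fits that leave out a sample were not run for the same reason. Library depth is unknown. The implied standard errors measure the precision of each ratio and do not stand in for depth.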
